A study of Mus musculus with 40 samples.

Results

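Gene expression in the embryonic mouse larynx, esophagus and trachea was compared between E15.5 and E13.5, where E gives the days of embryonic life since the vaginal plug. The comparison used 12 of the 40 libraries of the series, 2 for each tissue at each age, which were chosen by their labels as those of the 30 libraries with names that end in a short code. Further E15.5 libraries, with a sequence index in their names, did not enter, so that both ages were represented by the same kind of library name. All embryos were wild-type FVB/N mice without treatment or transgene, and within a tissue the labels set the groups apart by age. RNA-seq was bulk, so that each value sums over all the cell types present, and the tissue was the larynx at the level of the vocal folds or the esophagus or trachea further back. Each piece was pooled from 10 animals at E13.5 and from 20 animals at E15.5, so a library describes a pool, carries no measure of the spread between embryos, and differs in pool size with age, which cannot be told apart from age itself. The methods describe 2 biological replicates, the labels do not say whether pools came from separate litters, and every p-value rests on the spread among the libraries, which may be technical.

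All 3 organs arise from the anterior foregut, in which an inner epithelial tube divides into the airway and the esophagus while the surrounding mesenchyme forms muscle, cartilage and connective tissue. The esophageal epithelium and parts of the laryngeal epithelium become stratified and squamous, whereas the epithelium of the lower larynx and trachea forms basal, ciliated and secretory cells. Cartilage rings hold the airway open, striated muscle moves the larynx and the mouse esophagus, and smooth muscle lies in the wall of the trachea and of the esophagus. In the same days of gestation, circulating red cells of the yolk sac are replaced by red cells made in the liver.

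The libraries held 12883607 to 24163158 expected counts at E13.5 and 14002503 to 22062957 at E15.5. Values below are counts divided by each library's median-ratio factor (normalized counts) unless CPM, which are counts scaled to an equal library total, are named. Mitochondrial ribosomal RNA, which carries only a short poly-A tail, took 12.3 to 25.2% of the counts at E13.5 and 19.3 to 32.2% at E15.5. Several libraries held marker genes of organs next to the foregut or lacked genes of the labelled tissue. The E15.5 trachea library 1 was almost without epithelial markers, with 10.6 normalized counts of Epcam against 556 in trachea library 2. Nkx2-1, a transcription factor of the airway epithelium and of the thyroid, stood at 0 in trachea library 1. Its correlation with trachea library 2 across genes was 0.917, against 0.964 to 0.979 for the other replicate pairs. Nkx2-1 stood at 25.6 and 31.6 in the E15.5 larynx libraries and at 1.56 and 0 in those of the esophagus, whereas at E13.5 the esophagus libraries held 10.9 and 0.745 and the other 4 libraries 17.2 to 37.9. Thyroid genes summed to 2740 and 2270 CPM in the E15.5 larynx libraries and 1140 CPM in E15.5 trachea library 2. Whether Nkx2-1 came from airway or thyroid was not tested. The E15.5 esophagus library 1 held 67.1 of the visceral smooth muscle actin Actg2 against 1790 in esophagus library 2. Liver genes were highest in library 1 of each tissue at E13.5, heart genes were present in all libraries at E13.5, thyroid genes in both E15.5 larynx libraries and E15.5 trachea library 2, and thymus genes in E15.5 trachea library 2. Counts in more than 600 of 1193 olfactory receptor genes were found in E15.5 larynx library 2 (685) and trachea library 2 (1012), against 80 to 206 in the other 10 libraries.

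Across all 3 tissues, with tissue as a term in the edgeR quasi-likelihood fit, 6402 of 30599 genes tested were higher at E15.5 (20.9%) and 4334 were lower (14.2%) at a Benjamini-Hochberg adjusted p under 0.05. The median log2 fold change of all genes, always given as E15.5 minus E13.5, was 0.56, and with this median set to 0, 3273 genes were higher and 8532 lower. The shift lay in rarely counted genes: by mean normalized count, the median was 2.09 under 1, 0.71 from 10 to 100, -0.06 from 100 to 1000 and -0.13 over 1000. It was 0.35 without E15.5 trachea library 2 and 0.28, with 4552 genes higher and 3424 lower, when E15.5 larynx library 2 was left out as well. Among the 11448 protein-coding genes with a mean of at least 100 normalized counts, 2752 were higher and 3658 lower, with a median of -0.09. The level of the median gene against which a list is read therefore depends on how strongly its genes were counted. Setting the median to 0 lowered the step of every gene alike, also of strongly counted genes, whose median was already near 0. Counts of called list members over all tissues are to be read against the shares of all genes, 20.9% higher and 14.2% lower. Among the protein-coding genes just named these shares were 24% and 32%. In 2979 genes (9.74%) every E15.5 library lay above every E13.5 library, and in 2770 genes (9.05%) every E15.5 library lay below. Leaving out the 3 E13.5 libraries numbered 1 reduced the calls to 2885 higher and 2715 lower genes.

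**Figure D1:**
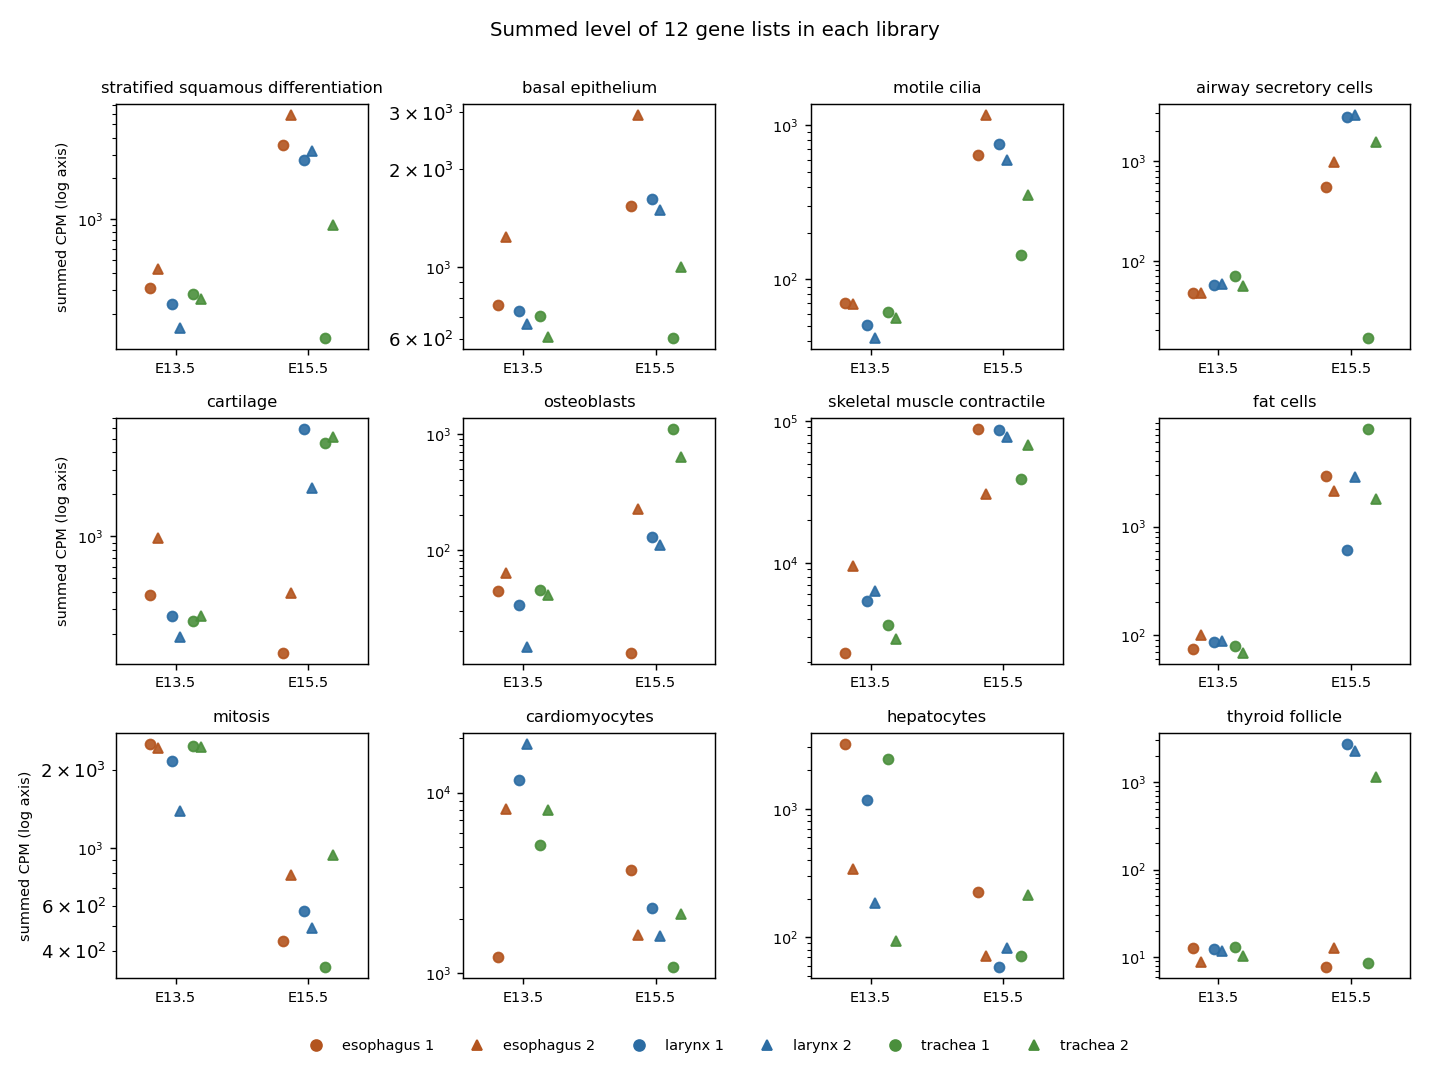
Summed level of the genes of 12 gene lists in each library, in CPM on a log axis, with E13.5 and E15.5 side by side. Colours mark the tissue (orange esophagus, blue larynx, green trachea) and symbols the replicate (circle 1, triangle 2). Fat genes stood at 69 to 99.8 CPM at E13.5 and 614 to 7870 at E15.5 without overlap, whereas squamous genes at E15.5 ran from 133 CPM in trachea library 1 to 5890 in esophagus library 2.

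Genes of stratified squamous epithelium were higher at E15.5 in every library except trachea library 1. Of 24 genes tested, 15 rose, none fell and 9 were not called by the edgeR test, with a median log2 fold change of 2.82 against 0.56 for all genes. In bulk samples, more or fewer cells of a type cannot be told apart from more or less RNA per cell, here or for any list below. Krt13 (GRCm39 chromosome 11, 100008153 to 100012392), the keratin of the suprabasal layers of mucosal epithelium, stood at 0, 2.66 and 36.5 normalized counts (lowest, median and highest library) at E13.5 and at 1.32, 19900 and 36100 at E15.5. The low value of E15.5 was trachea library 1, and the other 5 libraries of that age, from 4660 to 36100, were all above E13.5. The log2 fold change was 11.22 ± 1.35 (SE), with an adjusted p of 6.16e-05. Krt4, its keratin partner, went from 5.43, 17.9 and 108 to 2.64, 17400 and 38500 (8.77 ± 1.23 log2, adjusted p = 0.000187), again with only trachea library 1 inside the range of E13.5. Krt6a, a keratin of stratified and growing epithelium, went from 1.81, 13.6 and 34.1 to 6.61, 7320 and 9030. The small proline-rich protein gene Sprr3 had no count in any E13.5 library and 664 and 662 in the esophagus, 408 and 1170 in the larynx and 0 and 77.1 in the trachea at E15.5, at least 200-fold higher against a floor of 3 counts per library (adjusted p = 0.00055). Tgm3, a transglutaminase that crosslinks envelope proteins, rose from 2.58, 6.78 and 11.2 to 2.64, 1420 and 3200 (7.68 ± 0.86 log2, adjusted p = 3.48e-05). The protease inhibitor gene Spink5 did not overlap between the ages, at 0, 0 and 1.49 and 3.96, 83.1 and 426. Envoplakin (Evpl) and periplakin (Ppl), which tie the envelope to keratin, rose by less, with 2.50 ± 0.65 and 2.81 ± 0.68 log2. Keratins of the epidermis were not called: Krt1 stood at 10.9, 13.8 and 118 and then 9.37, 15.2 and 196 (adjusted p = 0.641) and Krt10 at 17.7, 37.5 and 206 and then 22.5, 37.7 and 74.8 (adjusted p = 0.691). Without E15.5 trachea library 1, 18 of the 24 genes rose and the median was 3.08.

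By tissue, 11 squamous genes rose in the esophagus, 15 in the larynx and 7 in the trachea. In the fit of all 12 libraries, no squamous gene was called as different in its step between trachea and esophagus or between larynx and trachea. The median step in the trachea less that in the esophagus was -1.84 log2 there. It was -6.43 without E15.5 trachea library 2 and -1.02 without E15.5 trachea library 1. For the larynx less the trachea, the medians were 3.05, 6.85 and 2.5 in the same order. Without library 2, the E15.5 trachea was library 1 alone, which was almost without epithelial markers. Library 1 held 133 CPM of squamous genes against 914 in library 2. Whether tissue or library set these differences was not tested. Of all genes, 6.63% rose and 4.81% fell in the esophagus, 8.23% and 7.18% in the larynx, and 9.74% and 8.19% in the trachea, and the counts by tissue below are to be read against these shares. These tissue tests compare 2 libraries with 2 and share their estimate of spread over all 12. Basal cells, the stem cells of these epithelia, were represented by 15 genes, of which 6 rose, 2 fell and 7 were not called (median 1.18). The E15.5 trachea library 1 moved these counts: without it 11 rose and 3 fell. The basal keratin gene Krt5 stood at 68.2, 460 and 1340 at E13.5 and 3.96, 1840 and 4150 at E15.5 and was not called (1.41 ± 0.85 log2, adjusted p = 0.199), whereas without E15.5 trachea library 1 it was called at 1.88, and without E13.5 trachea library 1 at 2.22. Krt14, its partner, was not called either (1.52 ± 0.71, adjusted p = 0.113), and was called at 1.88 without E15.5 trachea library 1. Krt15, another keratin of basal cells, went from 68.7, 226 and 1100 to 0, 7110 and 20300 (4.29 ± 1.02 log2, adjusted p = 0.0061), with trachea library 1 at 0 and the other 5 libraries above every E13.5 library. Among genes of the hemidesmosome, which anchors basal cells to the basement membrane, those that rose were the collagen Col17a1 (2.69 ± 0.56), the integrin chain Itgb4 (1.96 ± 0.36) and the laminin chains Lamb3 (1.72 ± 0.37) and Lama3 (1.18 ± 0.31). The integrin chain Itga6, the partner of Itgb4, fell (-0.80 ± 0.23, adjusted p = 0.0159). Bnc1, a zinc finger gene of basal keratinocytes and mesothelium, fell without overlap, from 271, 415 and 700 to 24.4, 41.8 and 70.3 (-3.33 ± 0.31 log2, adjusted p = 1.11e-05). 

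Markers of simple epithelium, which lines the foregut tube before it stratifies, were mostly not called. Of 12 genes, Cdh1 and Esrp2 rose, Cldn6 fell and 9 were not called (median 0.85). Both counts lay below the shares of all genes, 20.9% higher and 14.2% lower. Krt8, a keratin of simple epithelium, stood at 287, 1100 and 2650 at E13.5 and 55.5, 1970 and 3040 at E15.5 (0.26 ± 0.70 log2, adjusted p = 0.787), and its partner Krt18 at 288, 805 and 2010 and 23.8, 1010 and 1040 (adjusted p = 0.627). Both keratins were lowest in E15.5 trachea library 1, and within E13.5 Krt8 was lowest in esophagus library 2. The embryonic claudin gene Cldn6, a component of tight junctions, fell from 534 and 127 in the esophagus, 599 and 241 in the larynx and 596 and 949 in the trachea at E13.5 to 4.68 and 31.6 in the esophagus, 67 and 48.9 in the larynx and 0 in trachea library 1 at E15.5, while trachea library 2 alone reached into the range of E13.5 (-3.45 ± 0.71 log2, adjusted p = 0.00254). The call for E-cadherin (Cdh1, 1.12 ± 0.40, adjusted p = 0.0482) was lost without any of 10 single libraries, at 0.85 to 1.15 log2, so that 1 member of the list rose when any single library other than trachea libraries numbered 1 was left out. With E15.5 trachea library 1 left out, 7 of the 12 genes rose and 1 fell, whereas with the median gene set to 0 none rose. Esrp2, a splicing regulator of epithelial cells, rose by 0.98 ± 0.28 log2 (adjusted p = 0.0184), and its paralog Esrp1 was not called (adjusted p = 0.434) but was called at 1.19 without E15.5 trachea library 1. 

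Genes of motile cilia rose as a near-complete set. Of 39 genes tested, 36 rose, none fell, and Mcidas, Ccno and Tekt2 were not called, with a median of 4.45 log2, or 4.38 with genes at 0 in every E13.5 library set to their bound. Summed over the list, E13.5 libraries held 41.7 to 70.1 CPM and E15.5 libraries 144 to 1170 CPM, with trachea library 1 lowest. In 15 of the 39 genes every E15.5 library lay above every E13.5 library, against 9.74% of all genes. Promoters of 29 of the 39 genes were found in RefSeq (GRCm38.p6), and 16 of these 29 (55.2%) held the letters GTTGCC, the half-site of the X-box read by RFX transcription factors, on either strand between 250 bases before and 50 after the start. Among 27025 promoters of the same length 3821 (14.1%) held them. The match is a description of these windows and not of binding, and the following stretches of 30 bases show 4 of the 16 in the direction of the gene, with the half-site in capitals.
Deup1, chr9:15627908-15627937, minus strand: ccgcgtctccatGGCAACccactgggaacc
Rfx3, chr19:28011118-28011147, minus strand: gttatagcaaccGTTGCCttgtgaatcaag
Hydin, chr8:110266952-110266981, plus strand: tgcggttgctgtGGCAACagatggtaacaa
Dynlrb2, chr8:116504952-116504981, plus strand: acttcctgcctgGTTGCCtagcaacggggg

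Upstream regulators of ciliation came first in the list. Foxj1, the master transcription factor of motile cilia, went from 22.5 and 4.47 in the esophagus, 6 and 3.62 in the larynx and 10.3 and 5.05 in the trachea at E13.5 to 484 and 745 in the esophagus, 455 and 303 in the larynx and 123 in trachea library 2 at E15.5 (5.02 ± 0.65 log2, adjusted p = 0.000102), and only trachea library 1 lay within the range of E13.5. Gmnc, which starts the multiciliated program, rose from 0.745, 5.91 and 8.7 to 7.93, 32.8 and 51.8 (2.61 ± 0.65, adjusted p = 0.00816). Its relative Mcidas was near its detection limit in all libraries, at 0, 1.29 and 4.67 and 0, 4.16 and 8.11 (adjusted p = 0.341). Deup1, a scaffold on which multiciliated cells amplify centrioles, did not overlap, at 0, 3.67 and 4 and 5.29, 65.3 and 107 (4.24 ± 0.66 log2). The factors Rfx2 and Rfx3 were already present at E13.5 and rose by 1.12 ± 0.23 and 0.67 ± 0.16 log2. Dnah5, the heavy chain of the outer dynein arm (chromosome 15, 28203898 to 28472198), went from 0, 4.59 and 9.68 to 22.5, 1680 and 2830 without overlap (7.93 ± 0.84 log2, adjusted p = 2.41e-05). At E15.5 it stood at 1900 and 2830 in the esophagus, 1820 and 1540 in the larynx and 22.5 and 651 in the trachea. The dynein light chain gene Dynlrb2 stood at 0, 0 and 2.98 and 0, 247 and 594 (8.04 ± 0.99 log2), the tektin gene Tekt4 at 0, 0.667 and 1.81 and 3.96, 223 and 391 (7.78 ± 0.70) and the radial spoke gene Rsph4a at 0, 0.646 and 7.25 and 17.2, 303 and 690 (7.22 ± 0.77). Sntn, a protein of the ciliary tip, had no count at E13.5 and 0, 113 and 333 at E15.5, at least 53.8-fold higher (adjusted p = 0.00109). Cilia genes were called in each tissue, 32 of 39 in the esophagus, 35 in the larynx and 17 in the trachea called higher, and Ccno lower in the trachea (-4.70 ± 1.33, adjusted p = 0.0333). Without E15.5 trachea library 1, 37 rose with a median of 4.80.

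**Figure D2:**
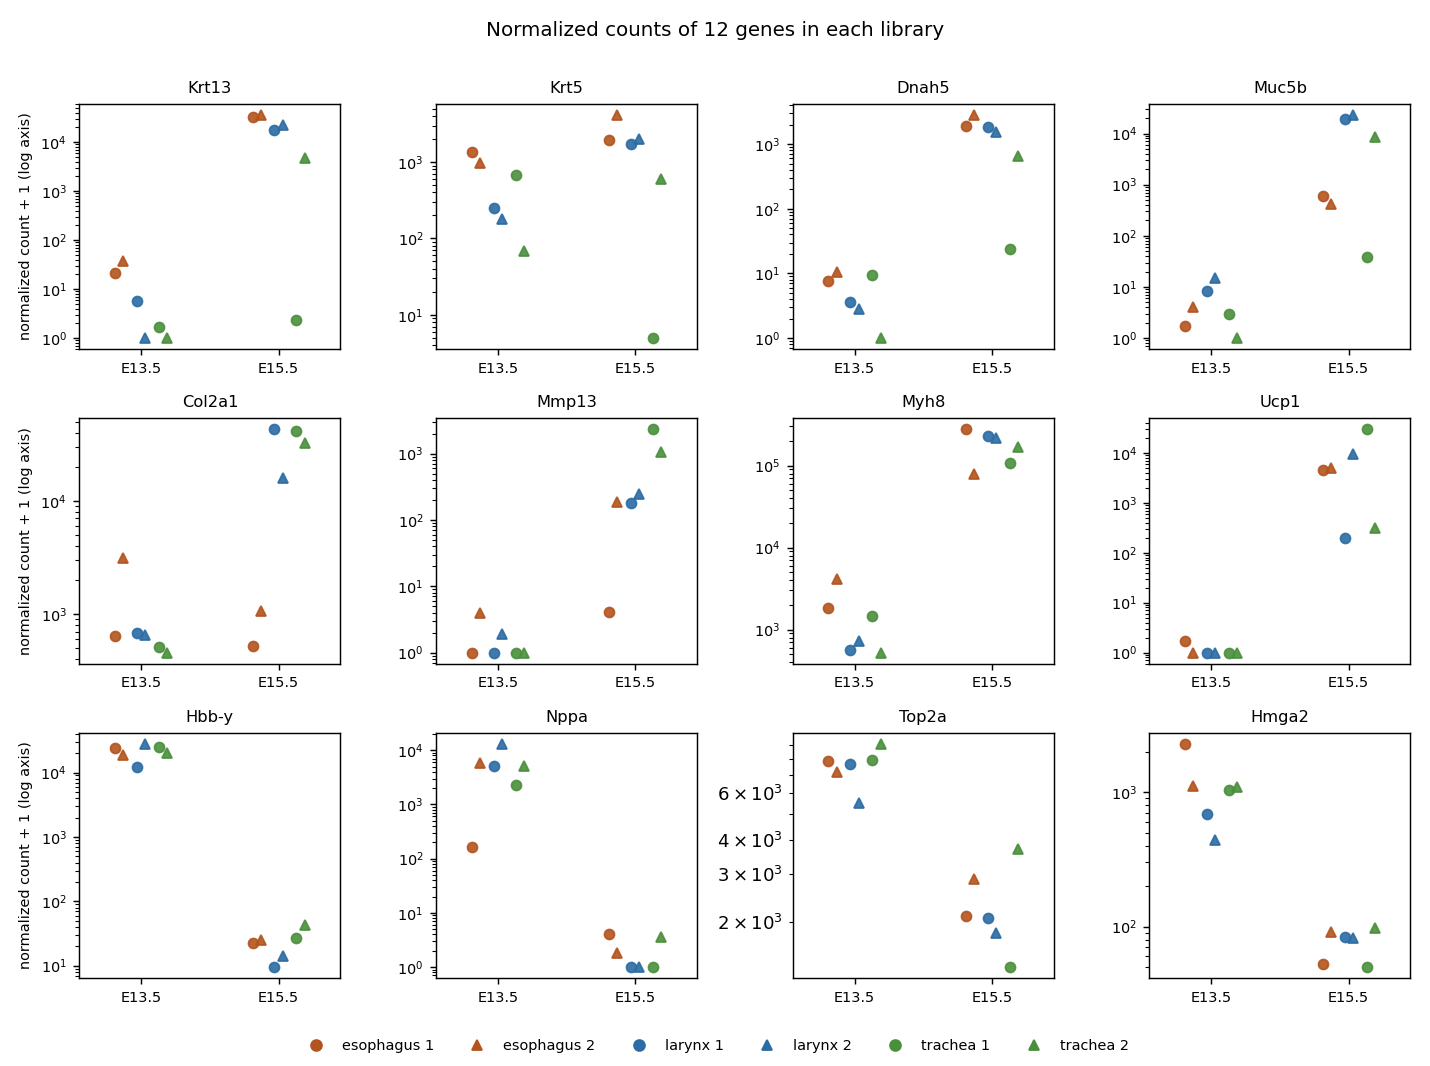
Normalized count plus 1 of 12 genes in each library on a log axis, with the colours of the tissues and the symbols of the replicates as in the plot of list levels. Dnah5, Muc5b, Myh8 and Ucp1 were higher in every E15.5 library, Nppa, Hbb-y and Hmga2 lower in every one, and Krt13 stood at 1.32 in E15.5 trachea library 1 against at least 4660 in the other E15.5 libraries.

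Airway secretory genes rose most in the larynx. Of 18 genes, 13 rose, none fell and 5 were not called, with a median of 4.90 (4.88 with genes at 0 set to their bound), and 13 were called in the larynx, 8 rose and Cftr fell in the trachea and 4 rose in the esophagus. Scgb1a1, the secretoglobin of club cells, had no count in any E13.5 library. At E15.5 it stood at 4.68 and 3.24 in the esophagus, 423 and 637 in the larynx and 0 and 344 in the trachea, at least 95.1-fold higher (adjusted p = 0.00422). Scgb3a1, a related secretoglobin, had 2 counts in all at E13.5 and 5090 and 5910 normalized counts in the larynx at E15.5, 1.32 and 3790 in the trachea and 46.8 and 17.8 in the esophagus. The ratio of its summed counts was 8790, with a 95% counting interval of 2430 to 72600. Muc5b, the gel-forming mucin of airway glands (chromosome 7, 141392807 to 141426821), stood at 0, 2.46 and 13.6 at E13.5 and did not overlap with E15.5, at 38.3, 4580 and 23200 (10.67 ± 1.23 log2, adjusted p = 4.44e-05). The larynx libraries of E15.5 held 19200 and 23200, trachea library 2 held 8550 and the other 3 held 38.3 to 607. Some secretory genes were high in the esophagus as well. Cyp2f2, a cytochrome P450 of club cells, went from 8.15, 13.1 and 18.1 to 35.7, 4450 and 9590 and was highest in the esophagus at 7130 and 9590 (8.02 ± 0.90 log2, adjusted p = 3.72e-05). Muc4, a membrane mucin, went from 0, 1.27 and 2.67 to 3.96, 784 and 907 without overlap (8.70 ± 0.90). Reg3g, an antibacterial lectin, rose from 0, 0 and 2.67 to 1.32, 1490 and 4670 (adjusted p = 7.36e-05), with 4650 and 4670 in the larynx and 201 and 225 in the esophagus. The gel mucin Muc5ac, the water channel Aqp5 and the chloride channel Cftr were not called over all tissues, at 1.54 ± 0.80, 2.08 ± 0.77 and -1.17 ± 0.63 log2. Differences between tissues were not called for these genes in the fit of all 12 libraries. The median step in the trachea less that in the esophagus was 0.47 log2 in that fit. It was 1.43 without E15.5 trachea library 1 and -5.48 without E15.5 trachea library 2. For the larynx less the trachea, the medians were 2.2, 1.3 and 7.21 in the same order. Without library 2, the E15.5 trachea was library 1 alone, which held 16.8 CPM of secretory genes against 1550 in library 2. Whether tissue or library set these differences was not tested.

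Genes of cartilage rose in both airway tissues and, for the most part, not in the esophagus. Of 20 genes tested over all tissues, 9 rose, none fell and 11 were not called (median 3.82), and DESeq2 called 17 higher. In the larynx 18 rose with a median of 4.88, in the trachea 18 with a median of 6.32, and in the esophagus 3 rose and 3 fell with a median of -1.28. Col2a1, the main fibrillar collagen of hyaline cartilage (chromosome 15, 97873483 to 97902689), stood at 679 and 650 normalized counts in the E13.5 larynx and 42700 and 16000 at E15.5. In the trachea it went from 513 and 459 to 41600 and 32300, and in the esophagus it stood at 643 and 3130 and then 525 and 1070. The tissue steps were 5.47 ± 0.76 log2 in the larynx (adjusted p = 0.00165), 6.25 ± 0.79 in the trachea (adjusted p = 0.00164) and -1.24 ± 0.64 in the esophagus (adjusted p = 0.281). In the fit with tissue as a term, which takes 1 step for all tissues, it was 4.31 ± 1.47 (adjusted p = 0.038). This call was lost without any of 7 single libraries (3.61 to 4.41). Aggrecan (Acan), the main proteoglycan of cartilage, behaved alike, with 59.3 and 31.7 and then 8030 and 3510 in the larynx, 36.2 and 21.5 and then 5730 and 7940 in the trachea and 35.5 and 466 and then 169 and 362 in the esophagus. With tissue as a term its step was 5.66 ± 1.58 (adjusted p = 0.015). That call was lost without E13.5 larynx library 1 (5.37) or 2 (5.09) or E13.5 trachea library 1 (5.03) or 2 (4.92). The transcription factor Sox9, which specifies chondrocytes, was not called over all tissues (0.16 ± 0.48 log2, adjusted p = 0.806). It went from 364 and 218 to 56.2 and 118 in the esophagus (-1.72 ± 0.49, adjusted p = 0.0462), from 240 and 153 to 614 and 306 in the larynx (1.23 ± 0.48, adjusted p = 0.112) and from 202 and 252 to 254 and 528 in the trachea (0.79 ± 0.47, adjusted p = 0.257). Its steps did not differ between tissues past the threshold in the fit of all 12 libraries (adjusted p = 0.303 for trachea and 0.563 for larynx, each against esophagus), whereas without E15.5 trachea library 1 they did, by 2.94 (adjusted p = 0.00439) and 2.93 (adjusted p = 0.00697). The partner of Sox9, Sox5, was not called either (0.14 ± 0.22), and Sox6 rose without overlap, from 373, 473 and 502 to 1030, 1330 and 1490 (1.52 ± 0.12, adjusted p = 4.69e-06). 

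The largest cartilage steps were those of Ucma and Col10a1. Col10a1, the collagen of hypertrophic chondrocytes, went from 6.67 and 2.72 to 2370 and 1450 in the larynx, from 9.04 and 13.9 to 7020 and 8810 in the trachea and from 5.8 and 9.68 to 26.5 and 36.5 in the esophagus (7.54 ± 1.09 log2, adjusted p = 0.000229). Ucma, a matrix protein of young cartilage, stood at 0, 0.362 and 1.29 and 15.6, 571 and 1770 (9.88 ± 0.75, adjusted p = 4.23e-06), also without overlap. The difference between the steps of tissues was tested directly. Between trachea and esophagus 9 of all 30599 genes differed (0.0294%), 5 with a larger step in the trachea (0.0163%) and 4 with a larger step in the esophagus (0.0131%). The 5 held 3 of the 20 cartilage genes, Col2a1, Col9a3 and Col10a1, of which Col10a1 had a larger step in the trachea by 7.44 ± 0.63 log2 (adjusted p = 0.00456) and Col9a3 by 6.58 ± 0.77 (adjusted p = 0.0389). Between larynx and esophagus Col10a1 was the single gene called (0.00327%), with 6.53 ± 0.64 log2 (adjusted p = 0.0206), and this call was lost without any of 8 single libraries (6.09 to 7.35), namely those of E13.5 except esophagus library 1, both of E15.5 esophagus and E15.5 larynx library 1. With the replicate number as a term at E13.5, 1 gene differed between trachea and esophagus and 0 between larynx and esophagus. Without E15.5 trachea library 1 these differences were called in far more genes, 508 of 29982 (1.69%) when trachea was set against esophagus and 171 (0.57%) when larynx was, and 17 and 15 of the 20 cartilage genes were among them. In that fit the E15.5 trachea was library 2 alone, without a replicate. Leaving out library 2 instead, which left library 1 alone, also raised the number called between trachea and esophagus. The rise in calls was therefore not particular to library 1, and its cause was not tested. For cartilage genes, the median step in the trachea less that in the esophagus was 6.51 log2 with all 12 libraries. It was 6.6 without trachea library 1 and 6.46 without trachea library 2. Between larynx and trachea no gene was called by edgeR, 1268 genes had an unadjusted p under 0.05, and DESeq2 called 15. Without E15.5 trachea library 1 that number was 5 (0.0167%), namely Klf5, Adam8, Enpep, Tbx18 and Tecta, none of them a listed gene, and without E15.5 trachea library 2 it was 503 (1.8%), with 22 (0.0789%) between larynx and esophagus. Library counts moved the cartilage call over all tissues too: 5 genes rose without E13.5 larynx library 1 or 2 or E13.5 trachea library 1 or 2, and 15 to 17 without E13.5 esophagus library 2 (16), E15.5 esophagus library 1 (17) or 2 (15). The E13.5 esophagus library 2 had the highest cartilage level of its age, at 969 CPM against a median of 267 CPM.

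**Figure D3:**
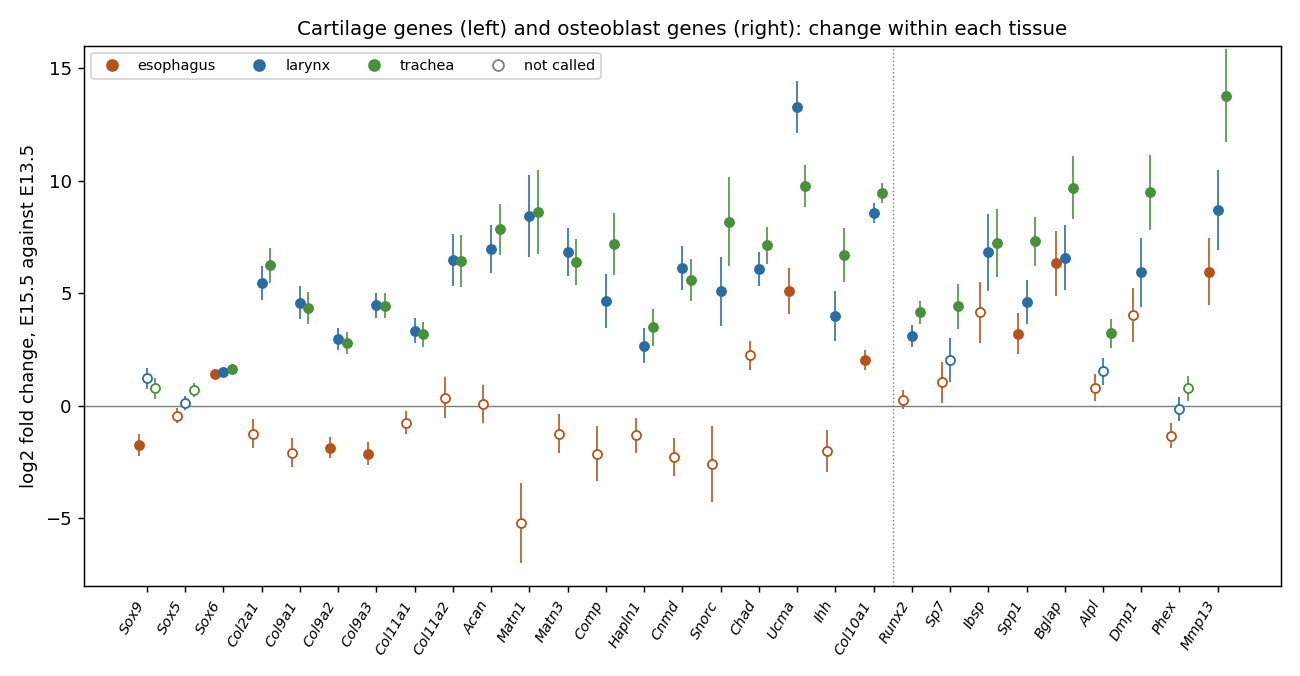
Log2 fold change from E13.5 to E15.5 of each cartilage and osteoblast gene in the esophagus (orange), larynx (blue) and trachea (green), with bars of 1 SE. Filled points passed an adjusted p of 0.05 in that tissue and open points did not, and cartilage genes lay near or below 0 in the esophagus and between about 3 and 13 in the airway for most members.

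Osteoblast genes, which mark bone or calcifying tissue, rose in 8 of 9 members (median 4.97, or 4.01 with Bglap at its bound). Summed levels were 14.6 to 63.1 CPM at E13.5 and 13.1 to 1100 CPM at E15.5, with both trachea libraries highest at E15.5 and esophagus library 1 lowest. Runx2, the transcription factor of the lineage, rose to 51.5 and 143 in the esophagus, 122 and 115 in the larynx and 371 and 298 in the trachea at E15.5 (2.52 ± 0.60 log2, adjusted p = 0.00602), and its target Sp7 from 7.24, 13.4 and 21.6 to 3.12, 68.1 and 377 (2.47 ± 0.72, adjusted p = 0.0178). The call for Sp7 was lost without E13.5 trachea library 1 (2.12) or 2 (2.06) or E15.5 esophagus library 2 (2.43). Ibsp, the bone sialoprotein gene, stood at 4690 and 3680 in the E15.5 trachea, 515 and 365 in the larynx and 23.4 and 1270 in the esophagus, against at most 47.8 at E13.5. Mmp13, a collagenase of hypertrophic cartilage and bone, did not overlap, at 0, 0 and 2.98 and 3.12, 215 and 2320 (9.29 ± 1.10, adjusted p = 5.43e-05). Dmp1, a gene of matrix-embedded bone cells, rose from 0, 2 and 13 to 12.5, 172 and 1070 (6.00 ± 1.02). Osteocalcin (Bglap) had no count at E13.5 and 157 and 39.8 in the E15.5 trachea, and over the libraries was at least 16.1-fold higher.

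Contractile genes of skeletal muscle rose in 21 of 25 members, none fell, and the median was 6.09 log2. Without E13.5 esophagus library 1 or E15.5 esophagus library 1, 1 member was called lower. In 19 of the 25 genes every E15.5 library lay above every E13.5 library, against 9.74% of all genes. Summed levels were 2330 to 9410 CPM at E13.5 and 30700 to 87100 CPM at E15.5. Acta1, the actin of skeletal muscle, went from 695, 1620 and 4480 to 66700, 171000 and 354000 (6.74 ± 0.54 log2, adjusted p = 5.1e-06), with esophagus library 1 highest and esophagus library 2 lowest at E15.5. Ckm, the muscle creatine kinase, rose from 81.9, 261 and 773 to 20000, 43300 and 89500 (7.38 ± 0.56), and the myosin light chain Mylpf from 245, 776 and 3460 to 22800, 57600 and 122000 (6.09 ± 0.65). The list held myosin heavy chains of embryonic, perinatal and adult fast fibers. The embryonic chain Myh3 rose by 3.06 ± 0.38 log2, from 1720, 3350 and 14600 to 21100, 28200 and 73100, and the perinatal chain Myh8 by 7.14 ± 0.60, from 524, 1090 and 4140 to 79700, 192000 and 277000. Adult fast chains rose by 7.79 ± 0.62 log2 for Myh1, 7.53 ± 0.54 for Myh2 and 10.20 ± 0.90 for Myh4 (adjusted p = 8.47e-06). Differences between the steps of these chains were not tested. Myh4 stood at 2.52, 6.98 and 26.1 at E13.5 and 328, 10400 and 31400 at E15.5, lowest in trachea library 1. These genes share sequence, and the authors' expected counts divide shared reads between them. The 4 members that were not called, Tnni1, Myh7, Smpx and Csrp3, are expressed in the heart as well, and their E13.5 levels followed the heart genes, highest in larynx library 2: Csrp3 stood at 362, 2530 and 9850 and 1910, 3160 and 7700 (0.32 ± 0.57, adjusted p = 0.679). The contribution of heart tissue to muscle values was not tested. Of 21 muscle promoters in RefSeq, 10 (47.6%) held the E-box letters CAGCTG, against 18.3% of all promoters, and none held CTAAAAATA, a site of MEF2 factors, which 0.588% of all promoters held.

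Regulators of muscle formation rose by less. Of 18 genes, 12 rose, 2 fell and 4 were not called (median 1.39), and with the median gene set to 0, 6 rose. A single member fell without E13.5 larynx library 2 or without E15.5 larynx library 1 or 2. The satellite cell factor Pax7 went from 11.4, 30.4 and 127 to 74, 148 and 183 (1.87 ± 0.39 log2, adjusted p = 0.0026), and Pax3 was not called (0.92 ± 0.69). Determination factors rose, Myf5 from 12.7, 38.1 and 146 to 74, 202 and 439 (2.35 ± 0.42), Myod1 by 1.16 ± 0.36 and Myog by 1.58 ± 0.38. Myf6, the factor of maturing fibers, did not overlap, at 0, 4.89 and 29.1 and 324, 744 and 1230 (6.60 ± 0.67, adjusted p = 1.88e-05), and Mymk, the membrane protein of myoblast fusion, rose by 2.94 ± 0.38 without overlap. Tbx1, a regulator of head and pharyngeal muscle, rose by 1.73 ± 0.49 (adjusted p = 0.016). Tcf21, which marks mesenchyme and precursors of branchial muscle and the epicardium, fell without overlap, from 129, 248 and 365 to 0, 25.3 and 70.5 (-3.47 ± 0.63, adjusted p = 0.00112). 

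Smooth muscle genes split. Of 12, 5 fell (Acta2, Cnn1, Tagln, Myocd and Actg2), 3 rose and 4 were not called (median -0.71). The 3 that rose, Des, Smtn and Synpo2, are also expressed in striated muscle. Heart genes summed to 1230 to 18600 CPM at E13.5 and 1080 to 3720 CPM at E15.5. What heart or striated muscle contributed to the rises and falls of this list was not tested. Acta2, the smooth muscle actin, fell without overlap from 6950, 9800 and 11200 to 1480, 3240 and 6860 (-1.45 ± 0.28 log2, adjusted p = 0.00184). Myocd, the coactivator that switches on smooth muscle and heart genes, fell from 419, 598 and 918 to 29.1, 52.7 and 84.3 (-3.54 ± 0.27, adjusted p = 4.6e-06). Esophagus library 2 was an exception at E15.5 in several genes. Actg2 stood there at 1790 against 56.8 to 105 in the other 5 E15.5 libraries and 270, 1280 and 1940 at E13.5 (-2.59 ± 0.80, adjusted p = 0.024), and calponin (Cnn1) at 796 against 34.4 to 97.7. Smooth muscle myosin (Myh11) stood there at 5020 and was not called over all libraries (-0.92 ± 0.55, adjusted p = 0.196), and was called at -1.73 without that library. Des, the intermediate filament of all muscle, rose from 941, 2290 and 4780 to 7270, 14900 and 26800 (2.72 ± 0.36). 

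**Figure D4:**
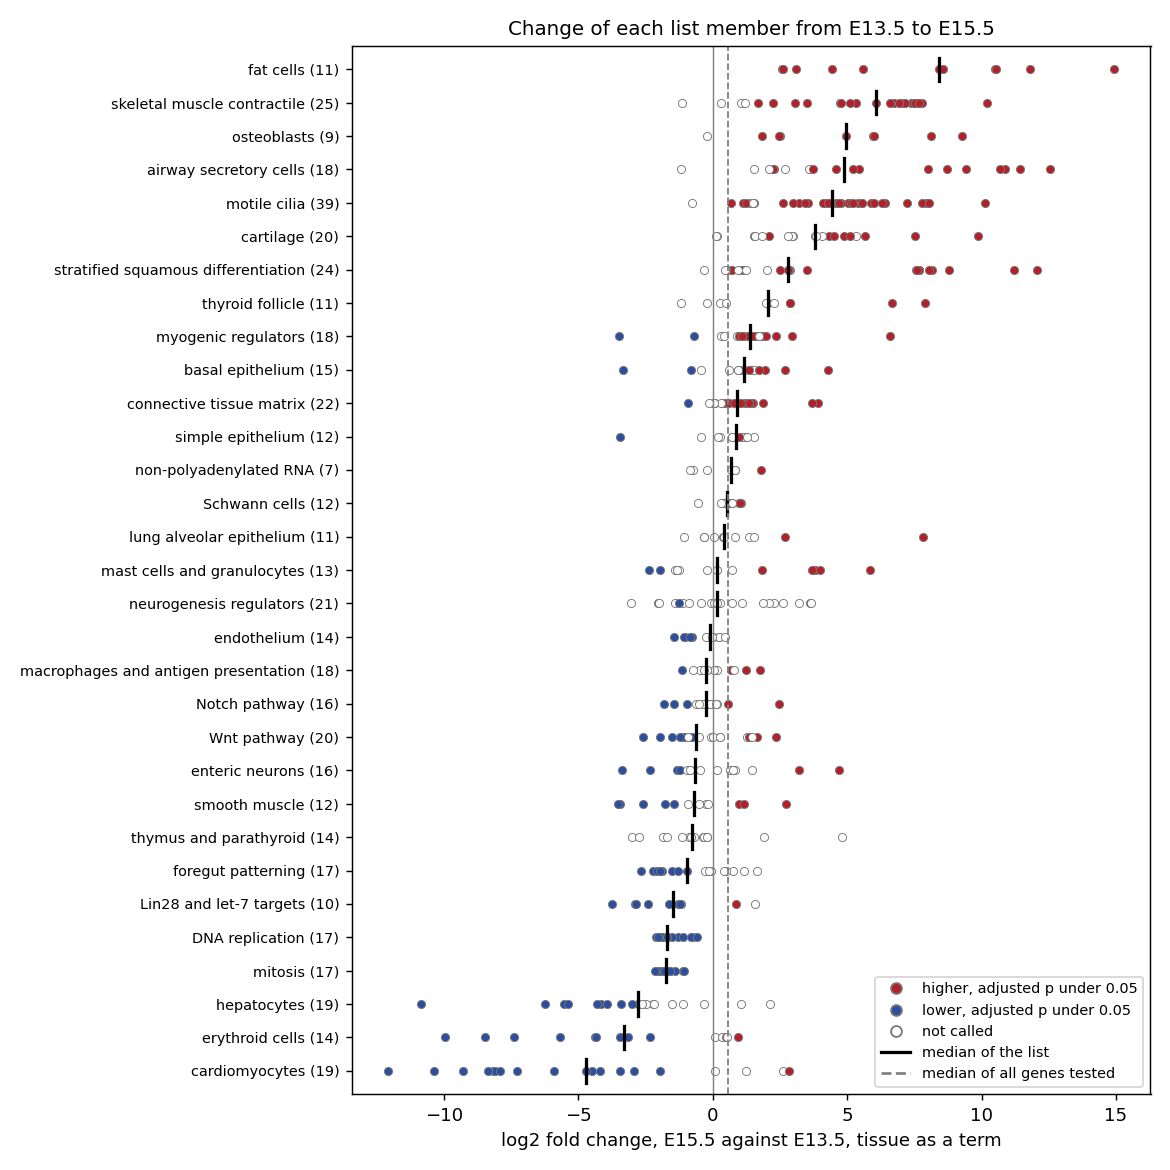
Log2 fold change from E13.5 to E15.5 of every tested member of each gene list (points), with lists sorted by their median (bar) and the median of all genes, 0.56, as a dashed line. Fat genes (median 8.43) and skeletal muscle genes (6.09) lie highest, and cardiomyocyte genes (-4.71) lie lowest.

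Connective tissue matrix genes rose in 14 of 22 members and 1 fell (median 0.90, against 0.56 for all genes), and with the median gene set to 0, 9 rose and 4 fell. The median of all protein-coding genes with a mean of at least 100 normalized counts was -0.09. The chains of type I collagen, Col1a1 and Col1a2, rose by 1.48 ± 0.32 and 0.99 ± 0.26 log2 and were highest in E15.5 trachea library 1. Type III collagen (Col3a1) was not called, at 45400, 57900 and 60800 and 55400, 75500 and 80500 (0.39 ± 0.18). Dermatopontin (Dpt), which organizes collagen fibrils, rose without overlap from 104, 108 and 291 to 769, 2390 and 2940 (3.93 ± 0.33, adjusted p = 6.47e-06). Mfap5, a protein of elastic microfibrils, rose from 71.8, 110 and 180 to 751, 1500 and 2010 (3.70 ± 0.29, adjusted p = 4.63e-06), and the type VI collagen chain Col6a3 by 1.89 ± 0.26. Elastin (Eln) was not called, at 1620, 5270 and 12500 and 2810, 8940 and 15700 (0.32 ± 0.47, adjusted p = 0.604), and fibulin 5 (Fbln5), which assembles elastic fibers, fell (-0.90 ± 0.26, adjusted p = 0.0171), but not without E13.5 larynx library 1. 

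All 11 genes of fat cells rose without overlap between the ages, against 9.74% of all genes, with a median of 8.43 log2. By tissue 10 rose in the esophagus, 9 in the larynx and 11 in the trachea. The receptor Pparg, which directs fat cell formation, went from 18.1, 24.2 and 42.8 to 146, 511 and 1600 (4.43 ± 0.47 log2, adjusted p = 2.6e-05). Adiponectin (Adipoq), a hormone of fat cells, rose from 0, 0 and 3.33 to 163, 1390 and 4130 (10.51 ± 0.87, adjusted p = 6.22e-06), and Fabp4, a fatty acid carrier, from 168, 232 and 315 to 1920, 10600 and 32000 (5.60 ± 0.57). Ucp1, the uncoupling protein that makes heat in brown fat (chromosome 8, 84016647 to 84025085), had a single count at E13.5 over all 6 libraries. At E15.5 it stood at 4660 and 5080 in the esophagus, 201 and 9510 in the larynx and 29800 and 306 in the trachea (adjusted p = 4.45e-05). The ratio of its summed counts was 60400, with a 95% counting interval of 10800 to 2390000. Plin1, which coats the fat droplet, also had 1 count at E13.5 and 119, 588 and 2960 at E15.5, and Cidea, a droplet protein of brown fat, went from 1.26, 7.37 and 12.7 to 192, 2380 and 11900 (8.56 ± 1.03). The level differed widely between E15.5 replicates, with trachea library 1 highest at 7870 CPM for the list and larynx library 1 lowest at 614 CPM. Whether the fat genes came from the organs or from tissue dissected with them was not tested. When that trachea library was left out, all 11 genes rose with a median of 7.63.

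Genes of cell division fell together in every tissue. All 17 genes of mitosis fell (median -1.74 log2), as did all 17 genes of DNA replication (median -1.70), against 14.2% of all genes that fell, and 16 mitosis genes were called in each of the 3 tissues alone. Their summed levels did not overlap, at 1390 to 2530 CPM at E13.5 and 347 to 943 CPM at E15.5 for mitosis, and 923 to 1810 CPM and 226 to 545 CPM for replication. Mki67, the proliferation antigen, went from 4710, 7090 and 7870 to 2090, 2910 and 5060 (-1.09 ± 0.19 log2, adjusted p = 0.000981), and trachea library 2 alone reached into the range of E13.5. Top2a, the topoisomerase that untangles chromosomes (chromosome 11, 98883769 to 98915062), fell without overlap from 5490, 7760 and 9090 to 1360, 2080 and 3700 (-1.70 ± 0.21, adjusted p = 8.11e-05). Kif20a, a kinesin of cytokinesis, fell from 1690, 2030 and 2350 to 271, 440 and 619 (-2.15 ± 0.17, adjusted p = 5.4e-06), as did the mitotic kinase Aurka (-2.07 ± 0.21) and cyclin B1 (Ccnb1) from 1850, 2220 and 2420 to 296, 513 and 720 (-2.06 ± 0.19). Of the helicase that opens replication origins, Mcm2 went from 1760, 1850 and 2070 to 353, 494 and 673 (-1.91 ± 0.15, adjusted p = 4.69e-06), and Mcm3 (-2.03 ± 0.19) and Mcm5 (-2.12 ± 0.21) fell too. The smallest falls were E2f1 (-0.60 ± 0.19) and Gins2 (-0.72 ± 0.12). All 17 mitosis genes were also called lower without E15.5 trachea library 1, without the 4 trachea libraries, without the 3 E13.5 libraries numbered 1 and with the median gene set to 0, and 16 or 17 replication genes were.

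The promoters of mitosis genes are shown because their members fell as a set. Of 13 promoters found in RefSeq, 11 (84.6%) held CCAAT, the box of the factor NF-Y, against 41.1% of all promoters, and 9 (69.2%) held TTTGAA, the core of the cell cycle homology region read by the DREAM and MuvB complexes, against 20.2%. Both were held by 9 of 13 (69.2%) and by 7.97% of all promoters, with 4 to 68 bases between them. The pair was looked at after the single motifs had been seen. The following stretches run in the direction of the gene, with both motifs in capitals on whichever strand they lie.
Top2a, chr11:99024353-99024388, minus strand: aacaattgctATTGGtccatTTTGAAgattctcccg
Cdk1, chr10:69352968-69353002, minus strand: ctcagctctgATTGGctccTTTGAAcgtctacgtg
Cdc20, chr4:118437337-118437371, minus strand: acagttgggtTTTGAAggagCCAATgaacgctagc

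Genes of the LIN28 and let-7 axis, a timer in which the RNA-binding protein LIN28 holds back the let-7 microRNA and so protects embryonic growth genes, fell in 8 of 10 members and 1 rose (median -1.46). Lin28b went from 39.1, 72.1 and 186 to 1.22, 9.06 and 51.4 (-2.87 ± 0.73 log2, adjusted p = 0.00868), with steps of -4.32 ± 0.95 in the esophagus (adjusted p = 0.0151), -4.01 ± 0.99 in the larynx (0.0213) and -0.78 ± 0.79 in the trachea (0.47). Hmga2, a chromatin protein of embryonic cells and a let-7 target, fell without overlap from 437, 1060 and 2290 to 48.9, 81.7 and 96.4 (-3.75 ± 0.33, adjusted p = 8.91e-06). The RNA-binding proteins Igf2bp1 (-2.40 ± 0.13 log2), Igf2bp2 (-1.29 ± 0.17) and Igf2bp3 (-1.62 ± 0.18) fell, and Igf2bp1 was tight within each age, at 1560, 1630 and 1920 and 200, 325 and 414 (adjusted p = 9.33e-07). Trim71, a let-7 target of stem cells, fell from 25.3, 47.6 and 87.7 to 0, 6.24 and 21.8 (-2.85 ± 0.71). Lin28a was not called (1.57 ± 0.75) but was at 2.11 without E13.5 esophagus library 1, where 2 members rose, and the nuclear receptor Nr6a1 rose by 0.88 ± 0.19. Mature microRNAs were not measured in these libraries.

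Foregut patterning genes fell in 9 of 17 members and none rose (median -0.96). The ligand Shh, secreted by foregut epithelium, went from 6.34, 39.5 and 98.5 to 1.28, 9.49 and 13.2 (-2.20 ± 0.61 log2, adjusted p = 0.0146), a call lost without E13.5 larynx library 1 (-1.90). Its targets in the mesenchyme, Ptch1 and Gli1, were not called (-0.27 ± 0.16 and -0.06 ± 0.20). Wnt2 and Wnt2b, mesenchymal ligands that specify the airway, fell without overlap, Wnt2 from 90.9, 241 and 387 to 20.3, 32.8 and 49.5 (-2.66 ± 0.36, adjusted p = 0.000132) and Wnt2b by the step of -1.89 ± 0.19. Foxa2, a factor of foregut endoderm (-2.08 ± 0.49), and Tbx4, a factor of airway mesenchyme (-1.95 ± 0.63), fell, as did Bmp4, from 340, 368 and 505 to 145, 205 and 280 (-0.96 ± 0.12). Sox2, which marks the dorsal foregut and esophagus, was not called (0.77 ± 0.54, adjusted p = 0.27), stood at 222 and 355 in the E15.5 esophagus against 52.9 and 65.6 at E13.5, and was called at 1.19 without E15.5 trachea library 1. Without that library 3 members rose and 9 fell.

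Among 20 genes of the Wnt pathway 7 fell and 3 rose (median -0.63), and 12 fell with the median gene set to 0. Of all genes 14.2% fell and 20.9% rose. The ligands Wnt4 and Wnt10a rose by 1.65 ± 0.27 and 2.37 ± 0.69 log2, Wnt11 fell (-0.81 ± 0.23), and Wnt3, Wnt3a and Wnt5a were not called. The call for Wnt10a was lost without E13.5 larynx library 1 (2.19), where 1 member of the pathway rose. Of the receptors, Fzd1, Fzd2 and Fzd3 fell, Fzd2 without overlap from 649, 800 and 998 to 205, 263 and 407 (-1.50 ± 0.17), and the stem cell receptor Lgr5 rose (1.35 ± 0.42). Among called members with a mean of at least 50 normalized counts, the secreted inhibitors Sfrp2 and Sfrp1 fell most. Other inhibitors in the list, Dkk1, Dkk2, Dkk3 and Wif1, are not given here. Sfrp2 went from 2070, 2650 and 3480 to 111, 348 and 1720 (-2.60 ± 0.53, adjusted p = 0.00224) and Sfrp1 from 2510, 2820 and 3220 to 412, 721 and 1090 (-1.95 ± 0.15, adjusted p = 4.9e-06). Axin2, a general target of the pathway, was not called (0.03 ± 0.13, adjusted p = 0.884). Of 16 Notch genes 3 fell, 2 rose and 11 were not called (median -0.25), and 9 fell with the median gene set to 0. Both Notch counts lay near the shares of all genes given above. The ligand Jag1 (-0.97 ± 0.16) and the targets Hey1 (-1.46 ± 0.15, adjusted p = 1.9e-05) and Hey2 (-1.80 ± 0.25) fell without overlap, the receptors Notch1, Notch2 and Notch3 were not called, and the inhibitory ligand Dlk2 rose from 5.17, 11.3 and 21.6 to 23.1, 65 and 117 (2.49 ± 0.36, adjusted p = 0.000231). Leaving out any single library other than E13.5 trachea library 1 and both E15.5 trachea libraries left 1 Notch member that rose in place of 2. 

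Genes of nerves and their glia changed in part. Of 16 genes of enteric neurons 4 fell, 2 rose and 10 were not called (median -0.64). Of all genes 14.2% fell and 20.9% rose. The falls included the progenitor genes Gfra1 (-1.34 ± 0.16 log2, adjusted p = 4.44e-05), Ednrb (-1.23 ± 0.16, adjusted p = 0.000122) and Hand2, which is also a heart gene, from 167, 241 and 556 to 2.64, 23.6 and 56.1 (-3.37 ± 0.46). Nos1, the nitric oxide synthase of inhibitory motor neurons and also of muscle fibers, rose without overlap from 5.05, 16.8 and 32.6 to 238, 399 and 721 (4.70 ± 0.28, adjusted p = 1.29e-06), and the neuropeptide gene Vip rose by 3.20 ± 0.90. The receptor Ret of enteric progenitors and neurons was not called (0.83 ± 0.43) but was at 1.28 without E13.5 esophagus library 1, where 4 members rose. General neuronal genes were highest in E15.5 trachea library 1, with Tubb3 at 2820 there against 92.6 to 679 in the other E15.5 libraries. Schwann cell genes rose in 5 of 12 members (median 0.53), and with the median gene set to 0, 1 did. The 5 rises became 2 without E13.5 esophagus library 1, and 3 without E13.5 larynx library 2, E13.5 trachea library 1 or 2 or E15.5 larynx library 2, and 1 member fell without E15.5 trachea library 1. The myelin gene Pmp22 (0.97 ± 0.14, adjusted p = 0.000173) did not overlap between the ages, and the call for the myelin gene Mbp was lost without any of 3 single libraries (0.50 to 0.59). Among 21 regulators of central neurogenesis, 18 were not called, 2 fell, among them Sox11 (-1.24 ± 0.17), and Atoh1 rose from 0, 0 and 0.905 to 0.811, 2.22 and 9.25, where 1 count was found at E13.5. The rises numbered 2 without E13.5 esophagus library 2 or E15.5 larynx library 1, and 3 without E13.5 larynx library 1. The summed level of the list was 40 to 87.5 CPM at E13.5 and 11.7 to 37.3 CPM at E15.5. Neurog1, Neurog2 and Neurod1 had at most 16.7 normalized counts in any library and were not called. 

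Embryonic globin genes fell in all 3 tissues and adult globin genes did not. Of 14 genes 9 fell, 2 rose and 3 were not called (median -3.29). Embryonic globins fell by orders of magnitude: Hbb-y (chromosome 7, 103500956 to 103502423) went from 12400, 22300 and 27900 to 8.52, 23.1 and 41.1 (-9.95 ± 0.37 log2, adjusted p = 7.6e-08) and Hba-x from 1520, 2470 and 2820 to 5.68, 12 and 27 (-7.40 ± 0.31, adjusted p = 1.73e-07). Hbb-bh1 kept 3 counts over the E15.5 libraries, against 1849 at E13.5, all in esophagus library 2 at 2.43 normalized counts, against 141, 265 and 335 at E13.5. The adult globins behaved differently. Hbb-bs stood at 11000, 21800 and 46400 and 30400, 56500 and 77000 (0.96 ± 0.32, adjusted p = 0.036), Hba-a2 at 827, 971 and 1830 and 926, 1780 and 2420 (0.51 ± 0.17), and Hbb-bt and Hba-a1 were not called (0.10 ± 0.27 and 0.34 ± 0.30). Both adult globin calls were lost in some fits with 1 library less, where the list had 0 rises without E13.5 esophagus library 2, E13.5 larynx library 1, E15.5 esophagus library 2 or E15.5 trachea library 2, 1 rise without E13.5 trachea library 2 or E15.5 larynx library 1 or 2, and 0 with the median gene set to 0. Adult globin genes share sequence, so that reads may be divided among them. Genes of erythroid precursors fell, among them the factor Klf1 from 6.31, 42.8 and 182 to 0, 1.3 and 1.62 (-5.67 ± 0.84, adjusted p = 0.00026) and the membrane anion exchanger Slc4a1 from 318, 844 and 2340 to 60.9, 109 and 167 (-3.44 ± 0.43). They were highest at E13.5 in library 1 of each tissue, as were liver genes.

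Heart genes were lower at E15.5 in 15 of 19 members, with a median of -4.71 log2. The atrial peptide gene Nppa (chromosome 4, 148085091 to 148086583) went from 161, 5190 and 13100 to 0, 0.405 and 3.12 (-12.07 ± 1.10 log2, adjusted p = 1.06e-05), Myl7, the atrial myosin light chain, from 1820, 16800 and 61600 to 1.32, 15.2 and 29.2 (-10.35 ± 0.84, adjusted p = 5.62e-06), and Myh6, the atrial heavy chain, from 3220, 34900 and 100000 to 288, 430 and 1800 (-5.92 ± 0.84). Larynx library 2 was highest and esophagus library 1 lowest at E13.5 in each of these. Factors of heart formation fell without overlap, Gata4 from 343, 589 and 1640 to 0, 0.609 and 8.99 (-8.35 ± 0.55), Tbx5 (-4.71 ± 0.39), Tbx20 (-7.28 ± 0.74), and Gata5 had 2 counts left at E15.5 against 1233 at E13.5. Sarcolipin (Sln), which is also expressed in skeletal muscle, rose (2.82 ± 0.46, adjusted p = 0.000519), and Myl2, Myl3 and Actc1, likewise shared with skeletal muscle, were not called. The list had 2 rises without E13.5 larynx library 2, E15.5 esophagus library 2, E15.5 larynx library 1 or 2 or E15.5 trachea library 1. Without the 3 E13.5 libraries numbered 1, 15 members fell as well. Liver genes fell in 10 of 19 members (median -2.78). Albumin (Alb) stood at 11300 and 1100 in the E13.5 esophagus, 5110 and 742 in the larynx and 10200 and 221 in the trachea, with library 1 higher each time, and at 11, 195 and 1790 at E15.5 (-4.15 ± 1.09, adjusted p = 0.0109). Its call was lost without E13.5 trachea library 1 (-3.31), where 6 liver genes fell, and 1 liver gene rose without E13.5 esophagus library 1. Afp, the fetal albumin (-6.22 ± 1.03), and the plasma protein genes Apoa1 (-4.32 ± 0.93), Apoa2 (-5.53 ± 1.01) and Ambp (-5.39 ± 1.04) fell. Without the 3 E13.5 libraries numbered 1, 4 liver genes fell, 2 rose and the median was 0.28. RNA of the organs themselves and RNA of what was dissected with them cannot be told apart.

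Thyroid genes rose in 5 of 11 members (median 2.06) and rested on 3 libraries. Thyroglobulin (Tg), the protein from which thyroid hormone is made, stood at 51600 and 44900 in the E15.5 larynx and 20700 in E15.5 trachea library 2, against 24.3 to 37.5 in the other 3 E15.5 libraries and 30.4, 52.5 and 115 at E13.5 (6.67 ± 2.20 log2, adjusted p = 0.0328). Its call was lost without E13.5 larynx library 1 (5.83) or 2 (5.90), E13.5 trachea library 1 (6.42) or 2 (6.13), E15.5 larynx library 2 (6.53) or E15.5 trachea library 2 (2.33). The receptor Tshr rose without overlap from 4.47, 11.9 and 14.5 to 14.6, 40.4 and 121 (2.06 ± 0.42). Thyroid rises numbered 2 without E13.5 larynx library 1 or 2, E15.5 larynx library 2 or E15.5 trachea library 2, and 3 without E13.5 trachea library 1 or 2 or E15.5 larynx library 1. None of 14 thymus and parathyroid genes was called by edgeR (median -0.75), where 2 had an unadjusted p under 0.05, and DESeq2 called 1. Calls appeared with 1 library left out: 1 rise without E13.5 esophagus library 1 or larynx library 2, 2 rises without E15.5 esophagus library 2 or E15.5 trachea library 1, and 2 falls without E15.5 trachea library 2. Foxn1, the factor of thymus epithelium, stood at 175 and 4.47 in the E13.5 esophagus, 50 and 0.905 in the larynx and 128 and 0 in the trachea, and Rag1, which recombines T cell receptor genes, reached 3000 in E15.5 trachea library 2 against 8.63 to 63.4 in the other E15.5 libraries. Psmb11 and Ccl25, genes of thymus epithelium, followed Foxn1 at E13.5 (adjusted p = 0.161 and 0.442). Of 11 lung alveolar genes 3 rose (median 0.41), and 1 without E13.5 larynx library 2. Of all genes 20.9% rose, a share close to that of this list. Sftpd, a surfactant protein that other airway epithelia also make, had 1 count at E13.5 and 1.32, 46.8 and 112 at E15.5, Slc34a2, a phosphate transporter, rose by 2.69 ± 0.83, and Abca3, a lipid transporter, by 0.37 ± 0.12, which turned to -0.20 with the median gene set to 0 and lost its call without E13.5 esophagus library 1, larynx library 2 or trachea library 1 or 2 or without E15.5 larynx library 1 or trachea library 1 (0.25 to 0.37). The defining alveolar genes Sftpb, Sftpc and Sftpa1 were not called and had at most 116 normalized counts in any library. 

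Among immune genes, some markers rose or fell while the common ones were not called. Of 18 genes of macrophages and antigen presentation 3 rose, 1 fell and 14 were not called (median -0.23), and with the median gene set to 0, 7 fell. The 3 rises and 1 fall lay below the shares of all genes, 20.9% higher and 14.2% lower. Common macrophage genes, Csf1r and Adgre1, stood at 733, 899 and 1150 and 590, 932 and 1620, and at 159, 264 and 338 and 183, 189 and 290, without a call, although Adgre1 was called lower without E13.5 trachea library 2 (-0.47). F13a1, Lyz2 and Mrc1, genes of tissue macrophages, rose without overlap, by 1.78 ± 0.20, 1.23 ± 0.18 and 0.67 ± 0.15 log2, and the chemokine receptor Cx3cr1 fell without overlap from 416, 604 and 730 to 208, 271 and 293 (-1.15 ± 0.15, adjusted p = 0.000123). There were 2 falls without E13.5 trachea library 2 or E15.5 larynx library 1. Mast cell genes rose in all 5 of their called members, while 2 genes of granulocytes fell, of 13 genes in all (median 0.16). The mast cell protease Cma1 went from 6.34, 21 and 103 to 140, 346 and 594 (3.81 ± 0.59, adjusted p = 0.000361), the tryptase Tpsb2 from 0, 2.78 and 7.25 to 89.9, 189 and 271 (5.86 ± 0.60, adjusted p = 1.99e-05), Mcpt4 rose by 3.99 ± 0.56 and Hdc, which makes histamine, by 3.71 ± 0.29, each without overlap. Cpa3, the carboxypeptidase of mast cells, rose by 1.84 ± 0.53, and the granulocyte genes Mpo and Prtn3 had log2 fold changes of -2.38 ± 0.65 and -1.96 ± 0.64. These 2 falls became 1 without E13.5 esophagus library 1, E13.5 larynx library 1, E15.5 esophagus library 1 or E15.5 larynx library 1, and 4 without E13.5 esophagus library 2 or E15.5 trachea library 1. Endothelial genes fell in 5 of 14 members and none rose (median -0.10), 1 rose without E15.5 trachea library 1, and 10 fell with the median gene set to 0. Of all genes 14.2% fell. Of protein-coding genes with a mean of at least 100 normalized counts 32% fell, with a median of -0.09, close to that of this list. Pecam1, Cdh5 and Kdr, which mark all endothelium, were not called, except Kdr at -0.38 without E15.5 trachea library 1, and Tek, the angiopoietin receptor, fell without overlap from 876, 2090 and 3610 to 703, 760 and 804 (-1.42 ± 0.21, adjusted p = 0.00026), beside Tie1 (-1.04 ± 0.17) and Emcn (-1.07 ± 0.24). Of RNA without or with short poly-A tails, only mt-Rnr1 of 7 genes rose (1.79 ± 0.34, adjusted p = 0.00146), mt-Rnr2 was not called (0.69 ± 0.49), and Rn7s1 and Rn7s2, copies of the 7SL RNA with identical values, were not called (0.82 ± 0.43). 

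Among protein-coding genes with a mean of at least 50 normalized counts and no overlap, the 10 largest rises were Ucp1, Scgb3a1, Dmbt1, Plin1, Fam240b, Muc5b, Cidec, Adipoq, Cfap144 and 2610028H24Rik. They belonged to the fat and secretory genes described above, except for 4 that were in no list. Dmbt1, a mucosal defense protein, had no count at E13.5 and 904 and 2170 at E15.5 in the larynx (at least 223-fold higher), and Fam240b, Cfap144 and 2610028H24Rik had none at E13.5 and 9.25, 191 and 415, 3.96, 162 and 390 and 7.93, 156 and 311 at E15.5, lowest in trachea library 1 each time. The 10 largest falls were heart, liver and embryonic globin genes: Nppa, Serpina6, Myl7, Hbb-y, Mybpc3, Hbb-bh1, Gata4, Gata5, Nppb and Tnni3. Serpina6, a hormone-binding globulin of the liver, fell from 8079 counts in all to 2, with 53, 540 and 2480 normalized counts at E13.5. In the esophagus alone the largest rises included Sec14l3, a lipid transfer protein of airway epithelium, with 1780 and 2600 at E15.5, Psca, a surface protein of mucosal epithelium, with 5290 and 4710, and Clca3b with 1260 and 1030, against at most 0.725 in E13.5 esophagus. In the larynx Dcpp2, a secreted protein of salivary glands, and Lipf, gastric lipase, were among the largest, with 1350 and 3700 and 3140 and 7600 at E15.5 and at most 0.905 at E13.5. The call for Sec14l3 in the esophagus was lost without E13.5 esophagus library 1 (14.12 log2), and that for Lipf in the larynx without E13.5 larynx library 1 or 2 (12.35 to 15.45). In the trachea growth hormone (Gh), a pituitary gene, was called from a single library, with 13.2 and 4490 at E15.5 and none at E13.5, and was not called without E15.5 trachea library 2 (6.84 log2) or without E13.5 trachea library 1 or 2 or E15.5 larynx library 2 (14.14 to 14.25).

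Outside cartilage, the genes among the 9 whose step differed between trachea and esophagus were Slc1a2 and Zfhx4, with the larger step in the trachea, and Gsto1, Ecm1, Gsta4 and Adh1, with the larger step in the esophagus. Slc1a2, Zfhx4 and Adh1 were named after their values had been seen. Slc1a2, a glutamate transporter, differed by 6.19 ± 0.83 log2 (adjusted p = 0.0487), and Adh1, an alcohol dehydrogenase, by -3.64 ± 0.48 (adjusted p = 0.0487). Gsto1, a glutathione transferase, went from 390 and 305 to 9390 and 9980 in the esophagus and from 319 and 384 to 703 and 1290 in the trachea, a difference of -3.30 ± 0.38 log2 (trachea minus esophagus, adjusted p = 0.0389). Ecm1, a secreted matrix protein of stratified epithelium, went from 183 and 156 to 1810 and 1300 in the esophagus and from 320 and 221 to 266 and 384 in the trachea (-2.94 ± 0.37, adjusted p = 0.0487). Gsta4 differed by -2.43 ± 0.32 (adjusted p = 0.0487). These calls were close to the threshold, and each was lost without most single libraries, with differences of -3.42 to -3.13 for Gsto1, -3.19 to -2.64 for Ecm1 and -2.63 to -2.21 for Gsta4. Of the other genes that the study discusses for this step, Col11a2 rose (4.90 ± 1.33 log2, adjusted p = 0.0128), and Niban2, Chac1, Llgl2 and Zfp36 were not called (0.17 ± 0.18, -0.16 ± 0.58, 0.49 ± 0.25 and 0.48 ± 0.19). Llgl2, a regulator of cell polarity, was called at 0.66 without E15.5 trachea library 1, and Zfp36 at 0.68 without E13.5 trachea library 1. The counts by tissue rested on few libraries as well: 3503 genes in the esophagus, which ranged from 1029 without E13.5 esophagus library 1 to 5461 without E15.5 trachea library 1 and was 1162 without E15.5 esophagus library 1 and 2179 without E13.5 esophagus library 2. The 4717 genes of the larynx fell to between 1298 and 1905 without any library of the larynx, and the 5486 of the trachea to 2727 and 1260 without E13.5 trachea library 1 and 2.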

How the data were processed

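Total RNA of pooled tissue was prepared with the RNeasy Micro kit, and poly-A libraries were made with TruSeq chemistry and random hexamers. HiSeq 2000 and NovaSeq6000 instruments are named, without saying which library ran on which. The authors aligned reads to GRCm39 with Bowtie2 (2.4.2) and deposited expected counts from RSEM (1.3.3), which divide reads shared by several genes. No source used here gives the annotation version or strandedness, so genes that overlap on opposite strands cannot be told apart.

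Expected counts were rounded and scaled by median-ratio factors. The 30599 of 53647 genes that reached a normalized count of 1 in 2 or more libraries were fitted with edgeR (4.0.16, R 4.3.3) by the quasi-likelihood test with Benjamini-Hochberg adjustment at 0.05, with tissue plus age (8 residual degrees of freedom) or 1 mean per tissue and age (6) for steps by tissue and their differences. Symbols came from GENCODE vM39, which matched 52610 genes. Of 513 listed symbols, Rn7sk was not found and Sprr1b was below the filter. None of 66 pairs of libraries was identical. Floors of 3 counts per library and intervals cover counting error only, and SE are those of the fit. The fits were tested on simulated data.

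The 12 libraries, the gene lists and the tests were chosen with earlier results of these data known. Named genes are the 10 largest rises and falls among called protein-coding genes with a mean of at least 50 normalized counts in the higher age and no overlap, the first 3 and the 3 most changed called members of each list, the 5 largest rises and falls by tissue, the 5 smallest p-values of each tissue difference, and genes that the study names for this step. Some named genes are not reported here. Further members of the lists were added to show the roles in a pathway after their values were seen. Alternatives used TMM factors, other filters, protein-coding genes alone, DESeq2 (1.42.0), a median set to 0, a replicate block, all 30 short-code libraries, and fits that left out libraries. Of these fits, those without the 4 trachea libraries and without the 3 E13.5 libraries numbered 1 were chosen after seeing the data. Libraries with the same number did not deviate together between the ages (correlations of -0.0465, -0.0544 and -0.118 in the 3 tissues), so the numbers were not taken to pair them. Within E13.5, libraries of different tissues with the same number did deviate together (0.241 to 0.312), so that they are not fully independent, and a fit with the number as a term at E13.5 was added.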

Additional observations from a re-analysis of the deposited data

Results flagged for a closer look

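Single libraries stood apart from the other 5 of their age in 8 of 70 tests (35 quantities at each age, tissues pooled, by Dixon's criterion for 6 values), where chance gives about 1.8 at each age. At E13.5 esophagus library 2 was highest in the summed level of basal epithelium genes, at 1240 CPM, and of cartilage genes, at 969 CPM, and larynx library 2 was lowest in mitosis genes, at 1390 CPM. At E15.5 esophagus library 2 had the largest total, 22062957 expected counts, and the highest Schwann cell level, at 385 CPM. E15.5 trachea library 1 was highest in enteric neuron genes, at 426 CPM, and in fat cell genes, at 7870 CPM, and E15.5 trachea library 2 was highest in thymus and parathyroid genes, at 344 CPM. Tissue differs within each age in these tests, and whether tissue or library sets a value was not tested.

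The step between the ages differed between tissues, by the test of the difference itself, in 6 named cases. Trachea and esophagus differed by 7.44 log2 in Col10a1, by 6.58 in Col9a3, by -3.30 in Gsto1, by -2.94 in Ecm1 and by -2.43 in Gsta4. Larynx and esophagus differed by 6.53 log2 in Col10a1. Of these calls, that of Col10a1 between trachea and esophagus was lost without E13.5 esophagus library 2 (7.03) or E13.5 trachea library 1 (7.11), that between larynx and esophagus without any of 8 single libraries (6.09 to 7.35), and Col9a3 was lost without any of 7 single libraries (6.04 to 7.21).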

How the results depend on the processing

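Over all tissues 5132 to 6607 genes were called higher and 3739 to 4479 lower when each library was left out in turn. At least 82.1% of the calls were shared in each of these fits, and every shared call kept its direction. Named genes that turned sign are given below. With the median gene set to 0, 3273 were higher and 8532 lower, 6751 genes were called in the esophagus and 7836 in the larynx. TMM factors shared 10075 of the 10736 calls (93.8%), the fit without E15.5 trachea library 1 shared 9932 (92.5%), and centring shared 7636, of which 29 had opposite directions. Without the 3 E13.5 libraries numbered 1, 2885 genes were higher and 2715 lower, with 122 called in the esophagus, 784 in the larynx and 698 in the trachea. Counts by tissue moved more: with 1 library left out, 1029 to 5461 genes were called in the esophagus, 1298 to 6744 in the larynx and 1260 to 5674 in the trachea, where a tissue left with 1 library at an age is assumed to vary like the other groups. The esophagus had 5351 calls without a filter on low counts and 5425 by DESeq2. 

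Differences between tissues were the least stable counts. With 1 library left out they ran from 0 to 905 genes (trachea and esophagus), 0 to 171 (larynx and esophagus) and 0 to 503 (larynx and trachea). In the same order they were 1722, 883 and 905 without a filter, 523, 129 and 15 by DESeq2, and 791, 24 and 567 when both libraries with counts in many olfactory receptor genes were left out. Between trachea and esophagus 1 gene was called with TMM factors, with a mean of at least 10 counts and with protein-coding genes only, and 80 with all 30 short-code libraries, where 13 were called between larynx and esophagus. Between larynx and esophagus 0 were called with a mean of at least 10 counts, 3 without the 4 trachea libraries, and 0 (as between trachea and esophagus) without the 3 E13.5 libraries numbered 1. A replicate block, which treats equal numbers as pairs across the ages though they did not deviate together between them, gave 6010 higher and 4135 lower genes, 23 differences between trachea and esophagus and 2 between larynx and esophagus, and changed no call of a named gene. A replicate block within E13.5 only, chosen after seeing the data, shared 10263 of the 10736 calls (95.6%), gave 1 difference between trachea and esophagus and 0 between larynx and esophagus, and turned Foxn1 (0.05), Psmb11 (0.38) and Chac1 (0.05). The cause was not tested in any of these cases.

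Of the named genes that turned sign, Abca3 alone was called (0.37, and -0.20 centred). Centring also turned Csf1r (-0.49), Sftpc (-0.51), Krt8 (-0.30), Sox9 (-0.40), Sox5 (-0.42), Col3a1 (-0.18), Ptprc (-0.44), Notch1 (-0.41), Niban2 (-0.40), Llgl2 (-0.07), Zfp36 (-0.09) and Eln (-0.24). TMM factors turned Csf1r (-0.02) and Sftpc (-0.04), and protein-coding genes only turned Pecam1 (0.04) and Notch3 (0.04). Without the 2 olfactory receptor libraries Pecam1 (0.04), Notch3 (0.05), Sox9 (-0.10), Ptprc (-0.54) and Chac1 (0.05) turned, and without the 4 trachea libraries Csf1r (-0.24), Sox9 (-0.25), Sox5 (-0.18) and Ptprc (-0.78). Without the 3 E13.5 libraries numbered 1, Notch3 (0.21), Sox5 (-0.02), Chac1 (0.85), Neurod1 (1.43), Krt18 (0.60), Foxn1 (2.86), Psmb11 (4.69) and Ccl25 (1.35) turned. With each library left out in turn, values ran from -0.06 to 0.21 for Csf1r, -0.06 to 0.68 for Krt8, -0.89 to 2.33 for Sftpc, -0.14 to 0.03 for Pecam1, -0.15 to 0.08 for Notch3, -0.13 to 0.53 for Sox9, -0.43 to 0.53 for Ptprc, -0.42 to 0.18 for Chac1, -1.95 to 0.80 for Neurod1 and -2.64 to 0.31 for Neurog2. Depth limits the low genes: a gene at 0 in the 6 libraries of an age could still have up to 3 counts in each.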
